A study of Mus musculus with 8 samples.

Results

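The proteasome genes described here are the 50 genes whose symbols begin with Psma, Psmb, Psmc, Psmd, Psme, Psmf or Psmg followed by a digit, out of 24062 genes in both count tables. They were followed in the free wall of the left ventricle of male C57BL/6 mice aged 8 to 12 weeks, by sequencing of total RNA depleted of ribosomal RNA. Myocardial infarction (MI) was made by tying off the left anterior descending (LAD) coronary artery, and sham-operated mice kept an open artery. Hearts were taken 1 day or 3 days after surgery, with 2 mice in each of the 4 groups (sham at 1 day, MI at 1 day, sham at 3 days, MI at 3 days). No transgene or drug is given for any group, each day had its own sham mice, and A and B name a group's 2 libraries by column order. After MI the tissue taken was ischemic, and a measured level is that of a mixture of cells, and fewer cells of a type cannot be told apart from less RNA per cell.

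The proteasome is the protease that degrades proteins tagged with ubiquitin. Its barrel, the 20S core, is built of outer rings of alpha subunits (Psma genes) and inner rings of beta subunits (Psmb genes), of which Psmb5, Psmb6 and Psmb7 encode the ones that cut. The 19S cap (Psmc and Psmd genes) recognises ubiquitin, unfolds the substrate with its ring of ATPases and feeds it into the core, while the alternative activators of the Psme genes open the core without ATP. Interferon and other inflammatory signals are known to induce Psmb8, Psmb9 and Psmb10, whose products replace those of Psmb5, Psmb6 and Psmb7 in newly assembled cores. This form, the immunoproteasome, is abundant in immune cells and favours peptides that fit MHC class I molecules, and in cardiomyocytes the proteasome is known for its part in turnover of sarcomere proteins.

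Psmb8 and Psmb9 lie in the MHC region of chromosome 17 beside the peptide transporter genes Tap1 and Tap2. In GRCm38.p6, the assembly of the mm10 build named by the submitters, Psmb9 covers chr17:34182030-34187330 and Tap1 starts 225 bases further on. Psmb8, at chr17:34198195-34201454, begins 969 bases after the end of Tap1. Psmb10 is at chr8:105935728-105938392, Psmb5 at chr14:54614120-54617995, Psmb6 at chr11:70525324-70527858 and Psmb7 at chr2:38588046-38643952, and these 6 genes are protein coding. The following lines give the 120 bases before the start of transcription in RefSeq's promoter table (GRCm38.p6), shown for the 3 inducible genes and for Psmb5. The start that the table gives for Psmb6 lies inside the gene as annotated, so its bases are not shown. Capitals mark a match to 1 of 4 motifs searched on both strands: the core of the interferon-stimulated response element (GAAANNGAA), the gamma-activated site (TTCNNNGAA), the core of the antioxidant response element (TGACNNNGC) and the CCAAT box.
Psmb8 (chr17:34198075-34198194, plus strand): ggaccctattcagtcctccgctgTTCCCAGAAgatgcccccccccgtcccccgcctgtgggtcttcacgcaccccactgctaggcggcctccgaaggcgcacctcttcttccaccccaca
Psmb9 (chr17:34187331-34187450, minus strand): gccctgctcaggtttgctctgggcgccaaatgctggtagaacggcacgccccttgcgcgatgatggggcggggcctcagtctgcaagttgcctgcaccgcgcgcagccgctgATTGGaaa
Psmb10 (chr8:105938393-105938512, minus strand): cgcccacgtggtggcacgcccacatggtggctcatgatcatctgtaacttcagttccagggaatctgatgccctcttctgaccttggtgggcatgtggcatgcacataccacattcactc
Psmb5 (chr14:54617996-54618115, minus strand): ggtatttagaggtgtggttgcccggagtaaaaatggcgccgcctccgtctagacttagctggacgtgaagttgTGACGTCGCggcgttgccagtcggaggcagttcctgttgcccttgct

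Of the 50 genes, 42 had an entry in that table, with 45 promoters of 250 bases before to 50 after the start. Psmb8 held a gamma-activated site match in these bases, Psmb9 a CCAAT box on the opposite strand, Psmb5 an antioxidant response element core, and the stretch shown for Psmb10 none of the 4. The gamma-activated site was in 6.67% of the members' promoters and 8.3% of all 32851, and the antioxidant response element core in 13.3% and 12.4%. Matches to the core of the interferon-stimulated response element stood in 7 of the 45 member promoters (15.6%) against 8.56% of all, and CCAAT boxes in 33.3% against 37.4%. Those 7 were of Psmb3, Psmb4, Psmc2, Psmd4, Psmd9, Psme1 and Psmg4, and none was of Psmb8, Psmb9 or Psmb10. The interferon and gamma-activated patterns can share their GAA end. A match is a description of letters, not of a bound site.

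Total counts ranged from 7382490 to 25041386 a library, and both MI libraries at 1 day, with 12662237 and 7382490, were the shallowest. MI library B at 1 day stood apart. In it, 92.2% of 1453 chemosensory receptor genes, which the heart is not known for, had reads, against 4.06 to 50.9% in the other 7. Reads of mitochondrially encoded genes made up 28.7 and 43.3% of the transcript-table reads of MI at 1 day, 13.9 to 16.6% in the sham libraries and 4.19 and 6.51% in MI at 3 days. The sample numbers in the headers of the transcript tables lay closer to each other within a group than to those of any other group, and what they stand for is not given, so a batch that follows them cannot be told apart from the groups. In the tissue check, 7 of 7 cardiomyocyte markers fell at both days, and their summed level was 58212 to 86699 CPM in sham libraries, 30664 and 39335 in MI at 1 day and 3282 and 3587 in MI at 3 days. The summed level of 3 atrial markers was 2.75 CPM in MI library A and 101 in library B at 1 day, 64.5 and 89.4 in sham at 1 day and 2.52 to 8.60 in the 4 libraries of 3 days. Of these, 0 of 3 passed the test of MI against sham at either day, and 3 of 3 were lower at 3 days than at 1 day within MI. The part of this difference in tissue in the results on the proteasome genes was not tested. Levels are in CPM (counts scaled to a common library total), on library sizes scaled by edgeR's TMM method, log2 values are the fitted fold changes, and adjusted p-values come from edgeR's quasi-likelihood test with Benjamini-Hochberg adjustment over 15508 genes tested. A gene is said to have risen or fallen where the adjusted p was under 0.05. P-values rest on counting error and on the spread between the 2 mice of each group. That spread is pooled over the 4 groups and drawn toward the spread of other genes. P-values cover no other source of error.

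The comparison of MI with sham at 1 day and at 3 days asks how the set of proteasome RNAs stood early and later after the injury. At 1 day 1 of the 49 members tested rose and 10 fell, where 19.3% of all genes tested rose and 19.7% fell, so the share of members that fell was near that of all genes. At 3 days 27 of 49 rose and 3 fell, against 31.7% and 23.7% of all genes. The median log2 fold change of the members was −0.33 at 1 day and 0.59 at 3 days, beside medians of 0.12 and 0.16 over all genes tested. The effect of MI differed between the days for 28 members by the test of the difference itself: it was more positive at 3 days for 27 and more negative for 1, where 13.2% and 11.3% of all genes were called. Without MI library B at 1 day, 1 member rose and 9 fell at 1 day, and without MI library A 4 rose and 22 fell. Without sham library A or B at 1 day 3 fell, with 0 and 1 that rose. At 3 days 17 rose without MI library A and 16 without MI library B, while the difference between the days was then more positive for 9 and 8. With libraries scaled by their size alone, which moved the median of all genes from 0.12 to 0.39 at 1 day and from 0.16 to 0.43 at 3 days, 4 members rose and 3 fell at 1 day, and 33 rose and 2 fell at 3 days. Psmb11, which encodes a catalytic subunit of thymic epithelium, was the member not tested, with 25 counts in all, 19 of them in MI library B at 1 day.

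Both libraries of MI lay above both of sham for 6 members at 1 day and below for 28, and the groups overlapped for the other 15. Over all genes tested, 34.7% lay above and 32.6% below. At 3 days 34 members lay above, 10 below and 5 overlapped, against 45.9% and 35.1% of all genes. Psmb6, Psmb9, Psmd13, Psmg1 and Psme2b fell at 1 day and rose at 3 days. Psme1 fell at both days, Psmd11 rose at both, and 15 members passed the test at neither day.

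**Figure D1:**
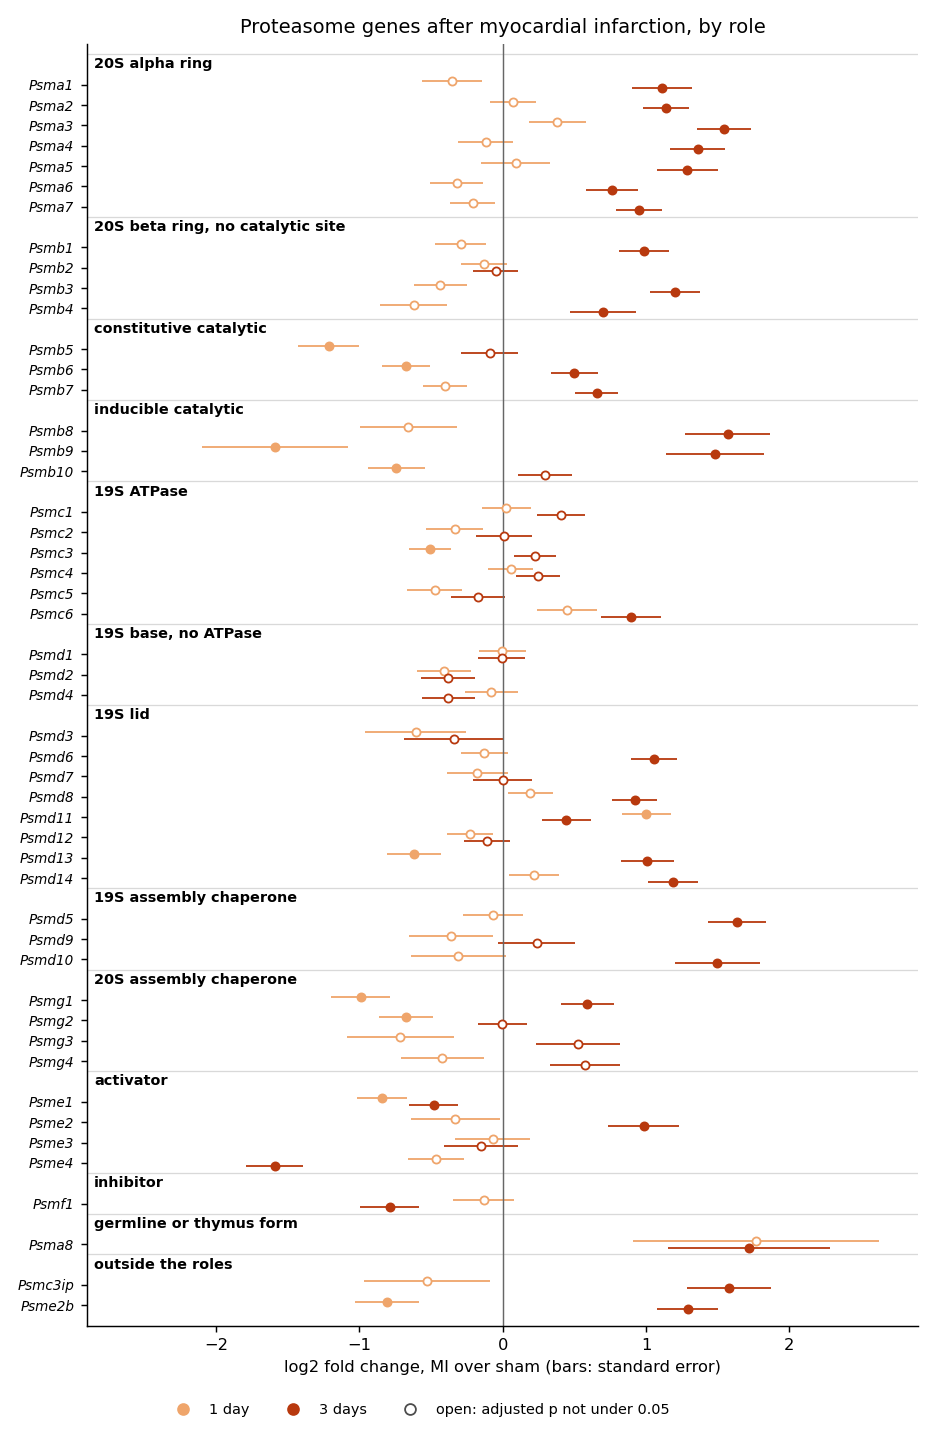
Log2 fold change of MI over sham for the 49 tested members, grouped by role, with its standard error: pale points are 1 day, dark points 3 days, filled where the adjusted p was under 0.05. At 3 days the filled dark points of the alpha ring lie from 0.76 to 1.54, while Psme4 lies at −1.59.

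The alpha ring forms the gated entrance of the core, and at 3 days 7 of its 7 genes, Psma1 to Psma7, rose, by 0.76 to 1.54 with a median of 1.14, where 31.7% of all genes rose. The lowest of these, Psma6, was lost under 3 of 16 alternative settings, down to 0.51 (adjusted p up to 0.17). At 1 day 0 of 7 passed the test (median −0.12). Psma3 had the largest rise: it was at 19.6 and 24.1 CPM in sham at 1 day, 29.8 and 27.0 in MI at 1 day, 24.5 and 20.4 in sham at 3 days, and 65.9 and 64.9 in MI at 3 days. Both MI libraries at 3 days stood far above the other 6, and those of 1 day lay closely above their sham. Its log2 difference from sham was 0.38 at 1 day (SE 0.20, adjusted p = 0.156) and 1.54 at 3 days (SE 0.19, adjusted p = 9.83e-05), a 2.91-fold rise.

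Psma2, nearest to the median of the ring at 3 days, was at 81.4 and 87.8 CPM in sham and 86.9 and 90.9 in MI at 1 day, then at 81.4 and 75.3 in sham and 181 and 164 in MI at 3 days. The groups overlapped at 1 day and lay apart at 3 days, where the log2 fold change was 1.14 (SE 0.16, adjusted p = 0.00022). Psma8, the alpha subunit of male germ cells, was close to background: at most 2.33 CPM in any library, with 96 reads in all in the transcript tables. Its fitted rise at 3 days, 1.72 (SE 0.56, adjusted p = 0.0259), was lost under 5 of 16 alternative settings, among them the removal of any 1 library of the 3-day groups (adjusted p = 0.0898 to 0.164).

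Among the beta subunits without a catalytic site, Psmb1, Psmb3 and Psmb4 rose at 3 days and Psmb2 did not pass the test (−0.05, adjusted p = 0.812). Psmb3 was at 32.2 and 30.9 CPM in sham and 25.1 and 21.4 in MI at 1 day, and at 27.1 and 24.6 in sham and 59.5 and 59.3 in MI at 3 days. Its MI libraries were the lowest of all 8 at 1 day, except that sham library B at 3 days lay below MI library A, and the highest at 3 days. The log2 fold change at 3 days was 1.20 (SE 0.17, adjusted p = 0.000277). Psmb1 at 0.99 (adjusted p = 0.00102) and Psmb4 at 0.70 (adjusted p = 0.026) lay on either side of the median of the 4, and the call on Psmb4 was lost under 9 of 16 alternative settings, down to 0.43 without MI library B (adjusted p = 0.381). Psmb1 was lost without MI library A at 3 days (0.67, adjusted p = 0.0581). Psma5 and Psmb3 had 2.89 and 1.91 times as many reads in the transcript tables as in the gene counts, where the median member had 0.501, so their counts are uncertain. Further members well above that median were Psme2 (4.80), Psmb5 (1.23), Psma3 (1.07), Psmd11 (0.964) and Psma4 (0.896), to which the same caution applies.

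Of the 3 constitutive catalytic genes, Psmb5 and Psmb6 fell at 1 day, and Psmb6 and Psmb7 rose at 3 days. Psmb5, the chymotrypsin-like subunit, was at 46.2 and 43.3 CPM in sham and 22.6 and 15.5 in MI at 1 day, and at 30.7 and 32.6 in sham and 29.1 and 30.3 in MI at 3 days. Both MI libraries of 1 day lay below the other 6, whereas at 3 days the MI libraries lay narrowly below their sham. Psmb5 fell by 1.21 at 1 day (SE 0.21, adjusted p = 0.00229), to 0.431 of sham, a call kept under all 16 alternative settings, and at 3 days it differed from sham by −0.09 on the log2 scale (SE 0.20, adjusted p = 0.722).

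Psmb6, the caspase-like subunit, was at 194 and 178 CPM in sham and 127 and 106 in MI at 1 day, and at 145 and 136 in sham and 193 and 203 in MI at 3 days. It fell by 0.68 at 1 day (SE 0.17, adjusted p = 0.011) and rose by 0.50 at 3 days (SE 0.16, adjusted p = 0.0256), with no overlap at either day. The rise at 3 days was lost under 12 of 16 alternative settings, with log2 values from 0.24 to 0.76, the lowest without MI library B at 3 days (adjusted p = 0.532). The fall at 1 day missed the threshold when either sham library was removed (adjusted p = 0.0978 for A, 0.0533 for B). Psmb7, the trypsin-like subunit, was at 192 and 206 CPM in sham and 150 and 150 in MI at 1 day, and at 170 and 165 in sham and 273 and 255 in MI at 3 days. The MI libraries lay below sham at 1 day, where the log2 fold change of −0.40 missed the threshold (SE 0.15, adjusted p = 0.0606), and above it at 3 days, where Psmb7 rose by 0.65 (SE 0.15, adjusted p = 0.00455). That rise was 0.39 without MI library A (adjusted p = 0.222) and 0.48 without MI library B (adjusted p = 0.138).

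Of the 3 inducible catalytic genes of the immunoproteasome, Psmb9 and Psmb10 fell at 1 day, and Psmb8 and Psmb9 rose at 3 days. Psmb8, which replaces Psmb5, was at 18.2 and 20.9 CPM in sham and 15.2 and 8.97 in MI at 1 day, and at 29.5 and 16.5 in sham and 61.6 and 75.1 in MI at 3 days. The MI libraries were below sham at 1 day and well above every other library at 3 days. Its log2 difference from sham was −0.66 at 1 day (SE 0.34, adjusted p = 0.148) and 1.57 at 3 days (SE 0.30, adjusted p = 0.00143), a 2.97-fold rise that held under all 16 alternative settings.

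Psmb9, the partner of Psmb6, was at 8.05 and 6.66 CPM in sham and 2.43 and 2.46 in MI at 1 day, and at 12.3 and 5.15 in sham and 21.9 and 26.9 in MI at 3 days. Of the 6 catalytic genes it had the deepest fall and the widest swing in the gene counts of all 8 libraries. It fell by 1.59 at 1 day (SE 0.51, adjusted p = 0.0335) and rose by 1.48 at 3 days (SE 0.34, adjusted p = 0.00456). The difference of these effects, 3.07 (SE 0.61, adjusted p = 0.00651), was the largest of all members in that fit. Under 15 alternative settings it ranged from 1.82 to 3.90, and that of Psmb8 from 1.88 to 2.76. Psmb9 was thus not the largest under every setting. The fall at 1 day rested on 30 and 20 counts in the MI libraries and was lost under 9 of 16 alternative settings, with adjusted p up to 0.238. It missed the threshold without any 1 of the 4 libraries of 1 day (adjusted p = 0.0735 to 0.17): without MI library B its value was −1.59 (adjusted p = 0.0817). In the reads of the transcript tables it was −0.62.

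Psmb10, the partner of Psmb7, was at 51.7 and 56.6 CPM in sham and 34.4 and 30.1 in MI at 1 day, and at 59.4 and 46.4 in sham and 60.4 and 69.2 in MI at 3 days. It fell by 0.74 at 1 day (SE 0.20, adjusted p = 0.0162), which no longer passed once either sham library of 1 day was removed (adjusted p = 0.0687 for A, 0.101 for B). At 3 days its MI library A lay closely above sham library A. The log2 fold change at 3 days was 0.29 (SE 0.19, adjusted p = 0.21).

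**Figure D2:**
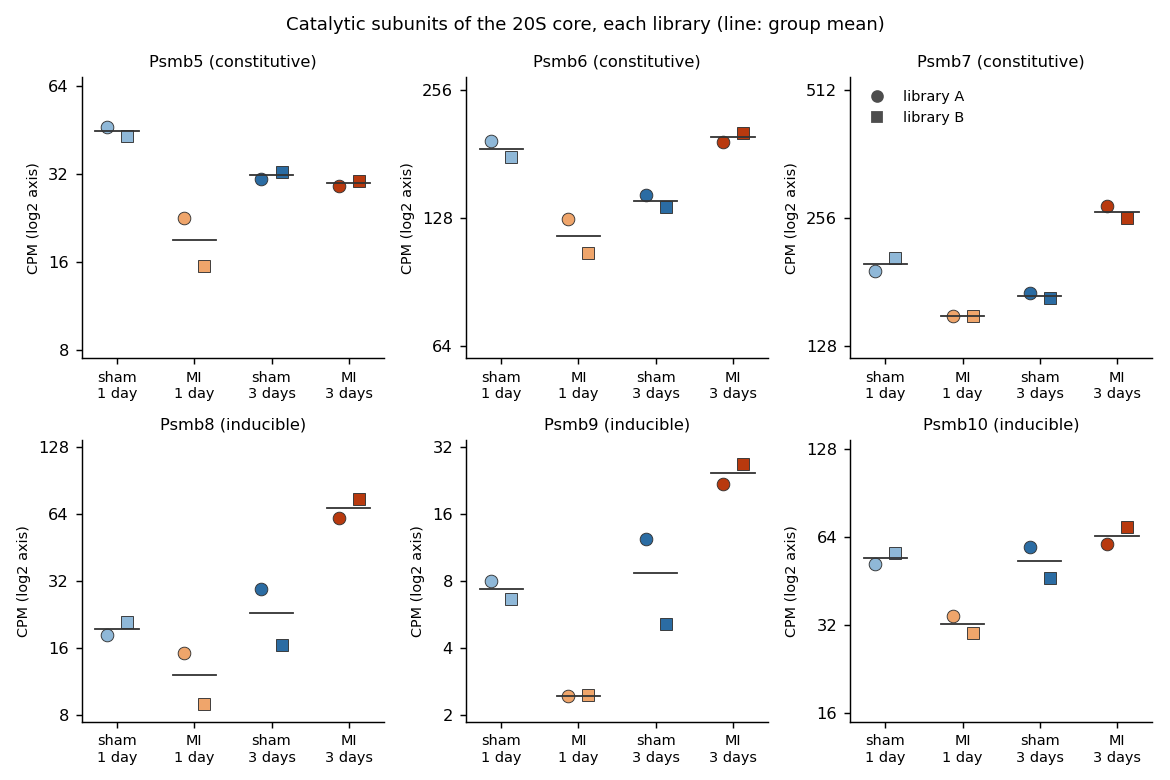
CPM on a log2 axis of the 3 constitutive (top) and 3 inducible (bottom) catalytic genes in each library, circles for library A and squares for B, with the group mean as a line. Psmb8 and Psmb9 are highest in MI at 3 days, and sham library A at 3 days stands above sham library B for both.

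Sham library A at 3 days was above sham library B for Psmb8 (553 against 311 counts) and Psmb9 (231 against 97 counts). In the same library the summed level of 8 leukocyte markers was 1157 CPM against 607 in library B, and that of 5 fibroblast markers 2806 against 1232. Without sham library A the rise at 3 days was 2.05 for Psmb8 (adjusted p = 0.00144) and 2.25 for Psmb9 (adjusted p = 0.000633). Without MI library B at 3 days Psmb9 no longer passed (1.11, adjusted p = 0.0695).

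A ratio of 2 genes within a library does not depend on how libraries are scaled. The counts of Psmb8 made up 28.3 and 32.6% of the Psmb8 and Psmb5 counts in sham at 1 day, 40.3 and 36.7% in MI at 1 day, 49.1 and 33.6% in sham at 3 days, and 67.9 and 71.2% in MI at 3 days. The exact 95% binomial intervals of the MI libraries at 3 days, 65.9 to 69.9% and 69.6 to 72.8%, lay above the highest bound of any other library, 52.0%, though such intervals cover counting error alone. On the log2 scale the ratio was higher in MI by 0.52 at 1 day and by 1.71 at 3 days, a 3.28-fold higher ratio. At 1 day both partners were lower in MI and Psmb5 more so, while at 3 days Psmb8 was higher with Psmb5 near its sham level.

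For Psmb9 and Psmb6 the inducible share was 3.99 and 3.60% in sham and 1.88 and 2.27% in MI at 1 day, then 7.86 and 3.66% in sham and 10.2 and 11.7% in MI at 3 days. The log2 ratio differed by −0.90 at 1 day, lower in MI, and by 1.11 at 3 days, higher in MI. In transcript-table reads the difference at 1 day was −0.10. Psmb10 made up 21.3 and 21.6% of its pair with Psmb7 in sham and 18.6 and 16.7% in MI at 1 day, and 25.9 and 21.9% in sham and 18.1 and 21.3% in MI at 3 days, differences in log2 ratio of −0.35 at each day. In counts, MI lay below sham in this pair on both days without overlap. With 2 libraries against 2, the 2-sided exact permutation test cannot go below p = 0.333 at 1 day, which is the value that each pair gave at each day. Permuted within both days, the test gave 0.0556 for Psmb8 over Psmb5, 1 for Psmb9 over Psmb6 and 0.0556 for Psmb10 over Psmb7 (adjusted over the 3 pairs, 0.0833, 1 and 0.0833), where 0.0556 is the smallest p it allows.

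**Figure D3:**
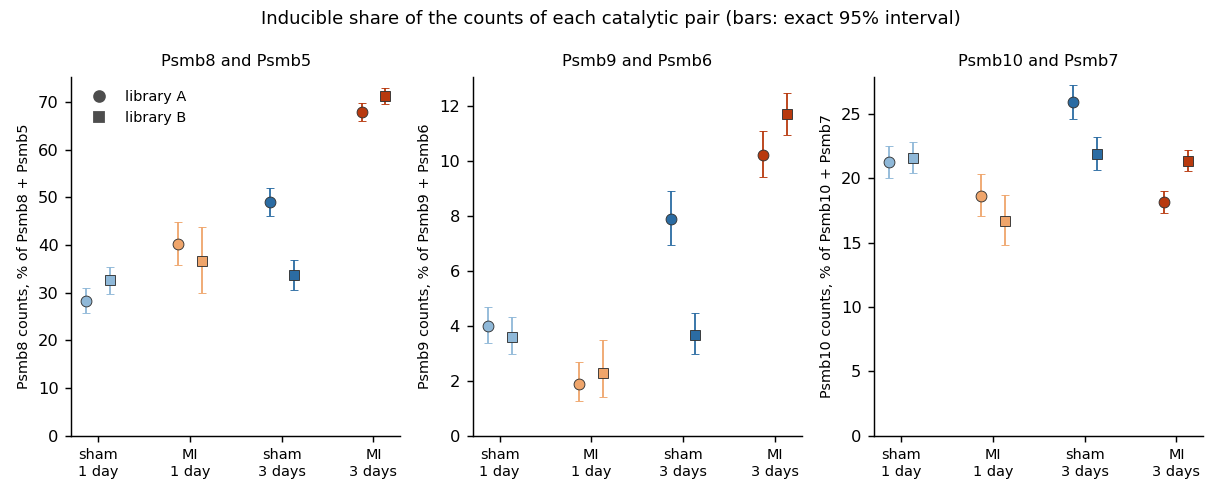
Share of the inducible subunit in the summed counts of each catalytic pair, in percent from 0, by library with its exact 95% binomial interval. Psmb8 reaches 67.9 and 71.2% in MI at 3 days and Psmb9 10.2 and 11.7%, while the Psmb10 share of 18.1 and 21.3% lies below both sham libraries.

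Counts do not compare levels of different genes, so the authors' transcript reads were divided by transcript length and by the library's transcript-table reads (RPKM, a level per length and depth) and summed by gene. On that scale the ratio of the Psmb8 level to the Psmb5 level was 0.111 to 0.114 in sham at 1 day, 0.138 to 0.168 in MI at 1 day, 0.133 to 0.230 in sham at 3 days and 0.468 to 0.525 in MI at 3 days. The ratio of Psmb9 to Psmb6 was 0.0274 to 0.0289 in sham and 0.0207 to 0.0267 in MI at 1 day, and 0.0251 to 0.0527 in sham and 0.0710 to 0.0791 in MI at 3 days. That of Psmb10 to Psmb7 was 0.192 to 0.196 in sham and 0.137 to 0.167 in MI at 1 day, and 0.199 to 0.254 in sham and 0.166 to 0.211 in MI at 3 days, so in this measure the groups of 3 days overlapped. By RPKM the constitutive gene had the higher level in each pair and group. For Psmb8 and Psmb5 this order depended on the measure: in MI at 3 days counts per longest transcript gave a log2 ratio of 0.07, counts per shortest transcript 1.29 and RPKM −1.01. Psmb5 had 1.23 times as many transcript-table reads as gene counts and Psmb8 0.501 times. Among the 50 members, Psmb8 had rank 40 by mean RPKM in sham at 1 day and rank 33 in MI at 3 days, and Psmb9 ranks 45 and 43. The Psmb8 level was 9.73 RPKM ± 0.158 (SD, n = 2) in sham at 1 day. At 3 days it was 12.3 ± 4.89 (SD, n = 2) in sham and 44.5 ± 7.51 (SD, n = 2) in MI. The reads divided by include mitochondrial ones, whose share was 13.9 to 16.6% in sham libraries and 4.19 and 6.51% in MI at 3 days. RPKM levels of different groups are therefore not on the same scale, while ratios and ranks within a library or group do not depend on this. Psmc3, at 205 RPKM ± 4.95 (SD, n = 2), led in sham at 1 day and Psma4, at 313 ± 4.11 (SD, n = 2), in MI at 3 days.

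Of the 6 ATPases of the 19S cap, which unfold substrates, Psmc3 fell at 1 day and Psmc6 rose at 3 days. Psmc3 was at 305 and 313 CPM in sham and 219 and 215 in MI at 1 day, and at 265 and 244 in sham and 299 and 297 in MI at 3 days. It fell by 0.51 at 1 day (SE 0.15, adjusted p = 0.0247), lost under 6 of 16 alternative settings, and its value at 3 days was 0.23 (adjusted p = 0.225). Psmc6 was at 117 and 135 CPM in sham and 143 and 202 in MI at 1 day, and at 151 and 128 in sham and 281 and 237 in MI at 3 days, with MI above sham on both days. The log2 fold change was 0.45 at 1 day (adjusted p = 0.116) and 0.90 at 3 days (SE 0.21, adjusted p = 0.00463), the latter 0.56 without MI library A (adjusted p = 0.136). Psmc4, nearest to the median of the ATPases at 3 days, was at 0.25 (adjusted p = 0.207).

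Of the 3 base subunits without ATPase activity, 0 passed edgeR's test at either day. Psmd4, a receptor that binds ubiquitin chains, was at 133 and 129 CPM in sham and 144 and 103 in MI at 1 day, and at 117 and 111 in sham and 88.1 and 87.4 in MI at 3 days. The groups overlapped at 1 day, and at 3 days MI lay below sham by a difference of −0.38 on the log2 scale (SE 0.19, adjusted p = 0.11), which passed under 6 of 16 alternative settings. Psmd2, a scaffold of the base, stood at −0.38 (adjusted p = 0.11), which also passed under 6 of 16 alternative settings, and Psmd1 at −0.01 (adjusted p = 0.977). In the authors' deposited DESeq2 analysis of 3 days, Psmd2 and Psmd4 were each lower in MI, by −0.55 (adjusted p = 0.0084 and 0.00705). Psmd1 stood there at −0.18 (adjusted p = 0.412).

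In the lid, which removes ubiquitin chains, 5 of 8 genes rose at 3 days: Psmd14, Psmd6, Psmd13, Psmd8 and Psmd11, the last 2 at 0.92 and 0.44 on either side of the lid's median of 0.68. Over all genes tested, 31.7% rose at 3 days. Psmd14, the deubiquitinase of the lid, was at 56.3 and 71.5 CPM in sham and 73.7 and 75.1 in MI at 1 day, and at 55.8 and 51.9 in sham and 119 and 127 in MI at 3 days. It rose by 1.19 (SE 0.17, adjusted p = 0.000305) at 3 days. Psmd13 reversed: it was at 114 and 105 CPM in sham and 81.8 and 60.3 in MI at 1 day, and at 82.2 and 74.3 in sham and 152 and 163 in MI at 3 days. The fall at 1 day was 0.62 in size (log2 −0.62, SE 0.19, adjusted p = 0.0277) and was lost under 7 of 16 alternative settings, among them without MI library B (−0.42, adjusted p = 0.0656). The rise at 3 days was 1.01 (adjusted p = 0.00123), and 0.73 without MI library B (adjusted p = 0.0653).

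Psmd11, the lid subunit that clamps the cap to the core, was the member that rose at 1 day. It was at 33.2 and 38.2 CPM in sham and 74.3 and 68.5 in MI at 1 day, and at 34.02 and 36.61 in sham and 46.5 and 49.5 in MI at 3 days. The MI libraries of 1 day lay highest, those of 3 days next, and the 4 sham libraries lowest, with no overlap. The log2 fold change was 1.00 at 1 day (SE 0.17, adjusted p = 0.00208), and 1.06 without MI library B (adjusted p = 0.00172), but without sham library A it was 0.85 (adjusted p = 0.0549). At 3 days the value of 0.44 (SE 0.17, adjusted p = 0.049) was lost under 12 of 16 alternative settings, down to 0.17 without MI library B (adjusted p = 0.685). Within MI, Psmd11 fell from 1 day to 3 days by 0.57 (SE 0.17, adjusted p = 0.0206), a call lost under 8 of 16 alternative settings (adjusted p up to 0.11).

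Core and cap can also be set against each other within a library. Summed counts of the 7 alpha genes over those of the 6 ATPases gave ratios of 0.669 and 0.705 in sham and 0.648 and 0.713 in MI at 1 day, and of 0.758 and 0.681 in sham and 1.24 and 1.18 in MI at 3 days. The 14 constitutive 20S genes over the 17 genes of the cap gave 0.676 and 0.669 in sham and 0.552 and 0.618 in MI at 1 day, and 0.690 and 0.640 in sham and 1.00 and 0.933 in MI at 3 days. By gene, 12 of those 14 rose at 3 days with a median of 0.97, and 6 of the 17 with a median of 0.23, where 31.7% of all genes rose with a median of 0.16 over all. The share of cap genes that rose was thus near that of all genes. These ratios describe 2 libraries a group, and no test was made of them. The summed counts of the 3 inducible over the 3 constitutive catalytic genes were 0.181 and 0.197 in sham and 0.174 and 0.153 in MI at 1 day, with MI below sham. At 3 days they were 0.293 and 0.204 in sham and 0.291 and 0.350 in MI, so the groups of that day overlapped.

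**Figure D4:**
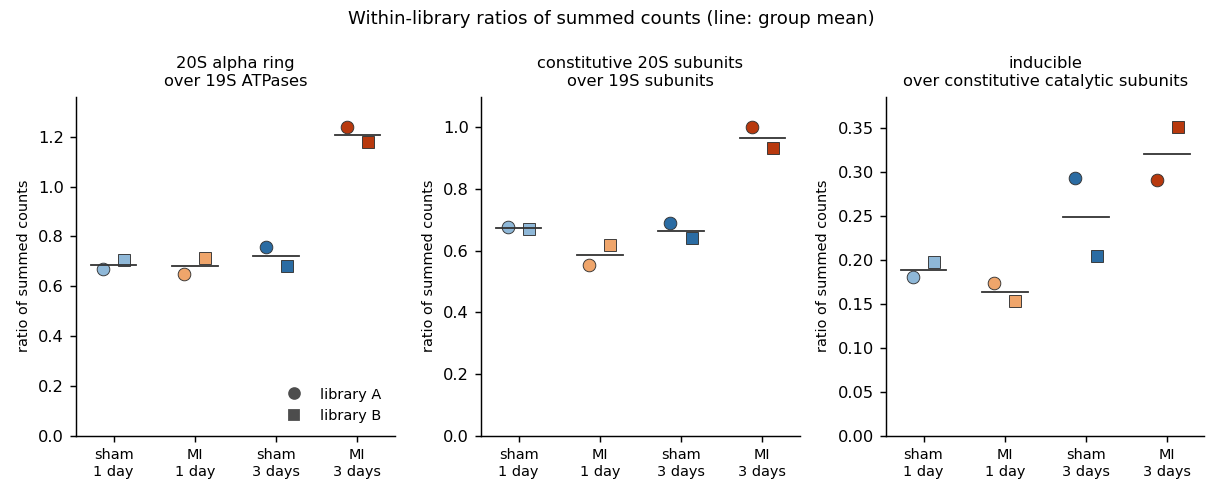
Ratios of summed counts within each library, from 0: alpha ring over ATPases, constitutive 20S over 19S genes, and inducible over constitutive catalytic genes, with the group mean as a line. The first 2 ratios are highest in both MI libraries at 3 days (1.24 and 1.18, and 1.00 and 0.933), while the third overlaps with sham library A.

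Of the 3 chaperones of the 19S base, 2 rose at 3 days, and of the 4 chaperones of the 20S core, 1, where 31.7% of all genes rose. Psmd5, a chaperone of the 19S base, was at 35.7 and 35.7 CPM in sham and 28.3 and 40.4 in MI at 1 day, and at 31.5 and 27.0 in sham and 88.0 and 93.4 in MI at 3 days. The groups overlapped at 1 day and were widely apart at 3 days, by a difference of 1.63 on the log2 scale (SE 0.20, adjusted p = 0.000104), 3.10-fold. Psmd10, known as gankyrin, was at 11.1 and 18.2 CPM in sham and 8.83 and 15.5 in MI at 1 day, and at 13.7 and 10.7 in sham and 34.2 and 34.4 in MI at 3 days. It rose by 1.50 at 3 days (SE 0.30, adjusted p = 0.00193), while Psmd9 stood at 0.24 (adjusted p = 0.48). Psmg1, a chaperone of the alpha ring, was at 24.7 and 22.8 CPM in sham and 11.2 and 12.9 in MI at 1 day, and at 20.7 and 20.7 in sham and 30.0 and 32.4 in MI at 3 days. It fell by 0.99 at 1 day (SE 0.21, adjusted p = 0.00511), kept under all 16 alternative settings, and rose by 0.59 at 3 days (SE 0.18, adjusted p = 0.0198), lost under 9 of 16 (0.31 without MI library B, adjusted p = 0.399).

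Of the other alpha ring chaperones, Psmg2 fell by 0.67 at 1 day (adjusted p = 0.0195), which did not pass when either sham library was removed (adjusted p = 0.107 for A, 0.0678 for B). Psmg3 and Psmg4 stood at 0.53 (adjusted p = 0.154) and 0.57 (adjusted p = 0.0697) at 3 days, both with MI libraries above sham. Pomp, the maturation factor of the core and no member by symbol, was at 94.0 and 113 CPM in sham and 93.3 and 89.7 in MI at 1 day, and at 104 and 83.9 in sham and 222 and 211 in MI at 3 days. It rose by 1.20 at 3 days (SE 0.18, adjusted p = 0.000325), after −0.18 at 1 day (adjusted p = 0.458).

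The alternative activators went in different directions. Psme1 and Psme2 encode the alpha and beta chains of the activator PA28, which is known to be induced by interferon and to work with the immunoproteasome, and their genes lie 5912 bases apart on chromosome 14. Psme1 was at 139 and 137 CPM in sham and 85.1 and 68.1 in MI at 1 day, and at 99.7 and 96.2 in sham and 66.7 and 73.5 in MI at 3 days. MI lay below sham on both days: Psme1 fell by 0.84 at 1 day (SE 0.17, adjusted p = 0.00475) and by 0.48 at 3 days (SE 0.17, adjusted p = 0.0354). The second call was lost under 7 of 16 alternative settings, with adjusted p up to 0.278, and the first was kept under all 16.

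Psme2 was at 6.08 and 6.43 CPM in sham and 5.75 and 3.93 in MI at 1 day, and at 7.21 and 5.78 in sham and 13.3 and 12.5 in MI at 3 days. Its log2 fold change at 3 days was 0.99 (SE 0.25, adjusted p = 0.0073), and 0.73 without MI library A (adjusted p = 0.114). Psme2b, a near-identical copy on chromosome 11, took 11681 gene counts against 1255 for Psme2, while the transcript tables placed 6020 reads on Psme2 and 18 on Psme2b, so the 2 cannot be told apart by gene count. Counted as 1 gene, which was decided after seeing the data, they were at 61.8 and 68.3 CPM in sham and 43.3 and 33.0 in MI at 1 day, and at 69.5 and 49.1 in sham and 142 and 142 in MI at 3 days. The sum fell by 0.76 at 1 day (SE 0.22, adjusted p = 0.0226) and rose by 1.26 at 3 days (SE 0.21, adjusted p = 0.000679). At 3 days Psme1 thus lay below sham and the sum above it, with no overlap in either.

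Psme3, the nuclear PA28 gamma chain, passed at neither day (−0.07 and −0.15), and its MI libraries at 1 day lay on either side of sham. Psme4 encodes PA200, a large activator known for degrading acetylated histones. It was at 766 and 807 CPM in sham and 472 and 669 in MI at 1 day, and at 657 and 763 in sham and 223 and 249 in MI at 3 days. The MI libraries at 3 days stood close together, under every other library. The log2 fold change was −0.47 at 1 day (SE 0.20, adjusted p = 0.0875), −0.74 without MI library B (adjusted p = 0.00757), and −1.59 at 3 days (SE 0.20, adjusted p = 0.000116), 0.332 of the sham level. Psme4 was the member with a more negative effect at 3 days than at 1 day (difference −1.13, SE 0.28, adjusted p = 0.0171). Psmf1, the inhibitor PI31, was at 24.8 and 21.6 CPM in sham and 22.8 and 19.4 in MI at 1 day, and at 22.1 and 22.0 in sham and 11.3 and 14.1 in MI at 3 days. The groups overlapped at 1 day and lay apart at 3 days, when Psmf1 fell by 0.79 (SE 0.21, adjusted p = 0.00925).

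**Figure D5:**
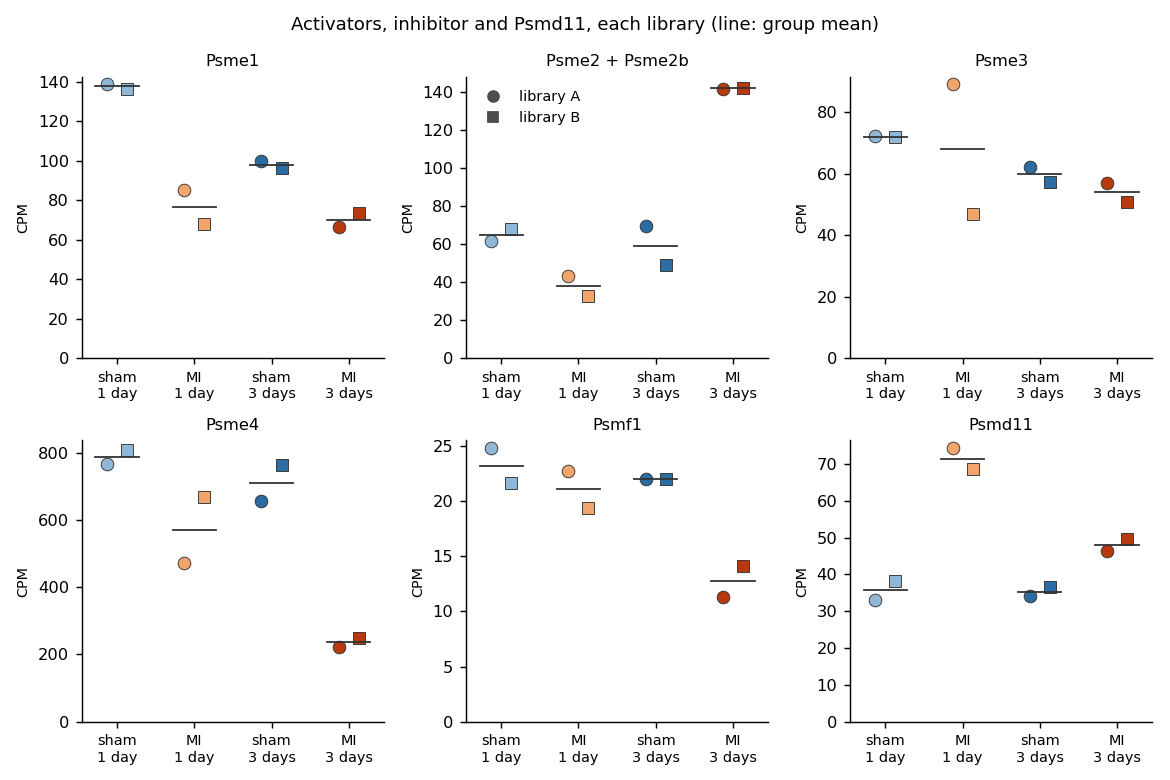
CPM from 0 of the activators, the inhibitor Psmf1 and the lid gene Psmd11 in each library, with Psme2 and its copy Psme2b added together and the group mean as a line. In MI at 3 days Psme4 lies at 223 and 249 CPM, below every other library, the Psme2 sum lies at 142 and 142, above every other library, and Psmd11 peaks in MI at 1 day.

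The remaining member matched by symbol, Psmc3ip, is a partner of Psmc3 by name, works in meiotic recombination and is no proteasome subunit. It was at 2.49 and 3.33 CPM in sham and 1.70 and 2.46 in MI at 1 day, and at 3.26 and 3.08 in sham and 10.5 and 8.47 in MI at 3 days, a rise of 1.58 (SE 0.30, adjusted p = 0.00138).

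Comparing the 2 days within MI, 30 members were higher at 3 days and 3 lower, where 23.4% and 22.0% of all genes were called. Psmb9 led with 3.32 (SE 0.45, adjusted p = 0.000352), a 9.98-fold higher level, followed by Psmb8 with 2.46 (SE 0.33, adjusted p = 0.000297), while Psmb10 stood at 1.00 (adjusted p = 0.00273). The call on Psmb10 was lost under 1 of 16 alternative settings (adjusted p = 0.0752). The falls were those of Psme4, kept under all 16 alternative settings, and of Psmf1 and Psmd11, each lost under 8 of 16 (adjusted p up to 0.103 and 0.11). Between the sham groups 0 members and 0% of all genes passed edgeR's test. At an unadjusted p under 0.05 there were 1210 genes and 6 members, and DESeq2 and limma-voom called 0 members too. This comparison shares its libraries with those above.

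Other genes of the pathway were followed in lists drawn up by known function. Of 8 further subunits and assembly factors, 3 fell at 1 day, where 19.7% of all genes tested fell. At 3 days 3 rose and 1 fell, beside 31.7% and 23.7% of all genes. Shfm1, the small lid subunit also called Sem1, fell by 0.70 at 1 day (adjusted p = 0.0165) and rose by 0.92 at 3 days (adjusted p = 0.00208). AI314180, the older symbol of Ecpas, a scaffold protein that binds the proteasome, fell at both days, by 0.50 (adjusted p = 0.0268) and 1.30 (adjusted p = 7.63e-05).

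Among 6 regulators of proteasome genes, Nfe2l1, the transcription factor known to raise proteasome genes when proteolysis falls short, fell at both days. It was at 676 and 655 CPM in sham and 469 and 253 in MI at 1 day, and at 597 and 563 in sham and 140 and 130 in MI at 3 days. It fell by 0.88 at 1 day (SE 0.25, adjusted p = 0.0219) and by 2.10 at 3 days (SE 0.26, adjusted p = 0.000103). Nfe2l2, the related antioxidant factor, rose by 0.89 at 1 day (adjusted p = 0.00257) and stood at 0.22 at 3 days (adjusted p = 0.265). Sel1l, a component of the endoplasmic reticulum system that exports proteins for degradation, fell by 0.58 at 1 day (adjusted p = 0.0204).

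In the list of interferon response and MHC class I genes, 1 of 11 tested rose and 3 fell at 1 day, and 7 rose and 0 fell at 3 days. The shares of all genes were 19.3% and 19.7% at 1 day and 31.7% and 23.7% at 3 days. Irf1, a transcription factor known to act on Psmb9, was at 35.1 and 34.6 CPM in sham and 40.3 and 36.9 in MI at 1 day, and at 40.1 and 40.4 in sham and 38.98 and 51.9 in MI at 3 days, log2 fold changes of 0.15 (adjusted p = 0.57) and 0.18 (adjusted p = 0.452). Ifng, the gene of interferon gamma, had too few counts to be tested. Tap1, the neighbour of Psmb9, was at 19.4 and 11.3 CPM in sham and 24.5 and 15.2 in MI at 1 day, and at 18.3 and 13.5 in sham and 30.6 and 41.3 in MI at 3 days. It rose by 1.18 at 3 days (SE 0.31, adjusted p = 0.00983), while Tap2, on the far side of Psmb8, fell by 1.62 at 1 day (SE 0.30, adjusted p = 0.00298) and stood at −0.50 at 3 days (adjusted p = 0.143). B2m, the light chain of MHC class I, rose by 1.64 at 3 days (adjusted p = 0.000439).

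Of the 4 muscle ubiquitin ligases, which tag sarcomere proteins for the proteasome, 3 fell at 1 day and all 4 at 3 days, by 3.37 (Trim63) to 4.31 (Trim54). Of all genes tested, 19.7% fell at 1 day and 23.7% at 3 days. Among the genes of ubiquitin and its activating enzymes, Rps27a, which encodes ubiquitin fused to a ribosomal protein, rose by 2.46 and 2.58 from under 2 CPM in sham, and Uba6, an activating enzyme, rose by 1.71 at 3 days (adjusted p = 0.000776).

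Markers of other cells were followed in the same comparisons. At 3 days 8 of 8 leukocyte markers rose, with a median of 2.85, and their summed level was 5995 and 6138 CPM in MI against 607 to 1157 in all sham libraries and 1026 and 1093 in MI at 1 day. At 1 day 4 of 8 rose. Neutrophil markers rose at both days, 5 of 5, from 94.5 to 195 CPM in sham libraries to 815 and 1508 in MI at 1 day and 432 and 836 at 3 days. Genes of cell division rose at 3 days, 5 of 5, and at 1 day 0 of 5 passed: their sum was 18.4 and 34.3 CPM in MI at 1 day and 1375 and 1505 at 3 days, against 19.04 to 94.4 in sham. Fibroblast markers fell at 1 day in 2 of 5 and rose at 3 days in 3 of 5. Of 5 endothelial markers, 3 rose (Pecam1, Cdh5 and Emcn) and 1 fell (Kdr) at each day, and 0 passed the test of the difference between the days. Among all genes tested, 19.3% rose and 19.7% fell at 1 day, and 31.7% rose and 23.7% fell at 3 days. Defining markers of T, B and NK cells were near 0, with a summed level of at most 7.74 CPM over 6 genes, reached in MI library B at 1 day, and 1.78 to 4.96 in the other MI libraries. The part of these cells in the changes of the proteasome genes was not tested.

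The authors' deposited table for 1 day, a DESeq2 analysis, had 1 member higher and 5 lower in MI of 49 with an adjusted p, and the table for 3 days, with its sign turned to MI over sham, had 24 higher and 6 lower. Those 6 were Psmd2, Psmd3, Psmd4, Psme1, Psme4 and Psmf1. For Psmb8 at 3 days the authors' deposited table gave a log2 fold change of 1.37 (adjusted p = 6.07e-05), and for Psmb5 at 1 day it gave −1.21 (adjusted p = 0.00576).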

How the data were processed

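The 8 libraries were made from total RNA without ribosomal RNA and read from both ends. The submitters' processing notes name build mm10 and the tools TopHat2 2.0.14, Bowtie2 2.2.5, HTSeq, DESeq2, FastQC and SAMtools 0.1.2, without roles or order. The authors deposited raw counts per gene symbol for each day, and 24062 symbols in both tables were joined. Per the file headers, further tables hold reads and length per transcript, from which RPKM were computed here and summed per gene. The authors' deposited DESeq2 tables give log2 fold changes and adjusted p-values.

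Counts were fitted with edgeR 4.0.16 (R 4.3.3), with TMM scaling, filterByExpr, robust quasi-likelihood fits over all 4 groups and Benjamini-Hochberg adjustment over 15508 genes. Count columns carry no replicate number, and those of sham at 1 day share a name, so A and B are column order only. Alternatives were DESeq2 1.42.0, limma-voom (limma 3.58.1), other scalings and filters, fits on 4 libraries, transcript reads, single libraries left out, and, chosen after seeing the data, Psme2 with Psme2b as 1 gene and those RPKM for the ratios per length. On library sizes scaled by TMM, 3 counts are 0.102 to 0.369 CPM. Binomial intervals are Clopper-Pearson at 95% and cover counting error alone. The members and lists were chosen with earlier results of these data known. Always named were the 6 catalytic genes, Psme1, Psme2 and Psmd4, in each role the called genes of largest rise and fall and the gene nearest the median, the extremes of the difference between days, and up to 3 genes a list besides Nfe2l1, Irf1, Tap1, Tap2 and Pomp. One gene of a named list is not reported here.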

Additional observations from a re-analysis of the deposited data

Results flagged for a closer look

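For 28 members the effect of MI differed between 1 day and 3 days by the test of the difference itself in edgeR, and these are given here as log2 values, 3 days minus 1 day. Psme4, the gene of the activator PA200, was the member with a negative difference, −1.13. Among the catalytic genes the difference was 3.07 for Psmb9, 2.23 for Psmb8, 1.04 for Psmb10, 1.12 for Psmb5, 1.18 for Psmb6 and 1.06 for Psmb7. The difference of Psmb8 was 1.88 without MI library B at 3 days and then missed the threshold (adjusted p = 0.0619), 1 of 15 alternative settings. Of those 15, calls on the difference were lost under 6 for Psmb5 and Psmb10 and 2 for Psmb6 and Psmb7, and under 4 for Psme4 (adjusted p up to 0.098).

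In the alpha ring the differences lay close together: 1.47 for Psma1, 1.07 for Psma2, 1.16 for Psma3, 1.48 for Psma4, 1.20 for Psma5, 1.08 for Psma6 and 1.16 for Psma7. These calls were lost under 1 of 15 settings for Psma1, 3 for Psma2, 4 for Psma3, 6 for Psma5, 5 for Psma6 and 2 for Psma7. In the rest of the beta ring they were 1.28 for Psmb1, 1.63 for Psmb3 and 1.32 for Psmb4, the first lost under 1 setting and the last under 5. In the cap they were 0.73 for Psmc3, 1.19 for Psmd6, 0.73 for Psmd8, 1.63 for Psmd13 and 0.97 for Psmd14, and calls were lost under 9 settings for Psmd8, 7 for Psmc3, 5 for Psmd14 and 2 for Psmd6. The chaperones had 1.70 for Psmd5, 1.80 for Psmd10 and 1.58 for Psmg1. Psme2 had 1.32 and its copy Psme2b 2.10, and Psmc3ip, no subunit, had 2.11. Here the call was lost under 7 settings for Psme2, 5 for Psmc3ip and 4 for Psmd10.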

How the results depend on the processing

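Counts of members moved by over 1.5 times as follows. With libraries scaled by size alone, 4 rose and 3 fell at 1 day, and 1 fell from 1 to 3 days within MI. At 3 days 5 fell with DESeq2 size factors, 5 with DESeq2, 5 with transcript reads and 9 in a fit of the 4 libraries of that day. Between the days within MI 5 fell with DESeq2 size factors, 5 with DESeq2, 6 with transcript reads and 1 with no filter on low counts, and the difference between days was more negative for 2 with transcript reads. With single libraries left out, 0 to 4 rose and 3 to 22 fell at 1 day, and 16 to 29 rose and 2 to 9 fell at 3 days. The difference was then more positive for 8 to 29 and more negative for 0 to 1, and within MI 18 to 30 rose and 1 to 7 fell. Psmd3 within MI was at −0.23 and ranged from −0.76 to 0.62, a rise, the latter without MI library A at 1 day.

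The log2 ratio of Psmb9 to Psmb6 at 1 day was −0.10 in transcript reads, against −0.90. In MI at 3 days the ratio per length of Psmb8 to Psmb5 was 0.07 by longest transcript, 1.29 by shortest and −1.01 by RPKM. That of Psmb9 to Psmb6 was −4.61, −2.40 and −3.74, and that of Psmb10 to Psmb7 −0.86, −2.16 and −2.42. The cause was not tested. The shallow libraries of MI at 1 day limit genes of few counts, such as Psmb9. No paired analysis was possible by replicate number, because the count columns carry no replicate numbers. The groups were of different mice, and nothing given makes pairs of them, so such numbers alone would not make the design a paired one.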
